A study of Homo sapiens with 4 samples.

Results

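Metallothioneins are small cysteine-rich proteins that bind zinc and copper, and the human MT1 and MT2 genes lie side by side on chromosome 16. The 8 genes described here were taken by symbol from the RNA-seq files, *MT2A*, *MT1X*, *MT1E*, *MT1F*, *MT1G*, *MT1H*, *MT1M* and *MT1L*, 8 of 23287 gene symbols. All 8 were found, each with 1 transcript. The progesterone receptor (PR) binding sites within 50 kb of the cluster were added to them, 4 of 11181 sites.

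The study treated T47D cells, a breast cancer line that expresses the PR, with 10 nM of the synthetic progestin R5020 or with its vehicle, ethanol (EtOH). There was 1 RNA-seq library of R5020-treated and 1 of EtOH-treated cells, both harvested after 3 h and both plated in charcoal-stripped serum 24 h before harvest. There was also 1 PR ChIP-seq library of cells treated with R5020 for 1 h, with 3 days in such serum. The sites and the RNA thus differ in both times. Every comparison below is therefore between 2 libraries, without replicates and without a test. T47D is 1 cell line, and the findings are of that line.

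Metallothionein genes are induced by metals through MTF1, a zinc-sensing transcription factor that binds metal response elements in their promoters. *MT2A* is also a classic steroid hormone target. Its upstream region is known to hold a steroid response element that binds the glucocorticoid receptor, which belongs to the same receptor family as the PR and reads a similar sequence. Of the 8 genes described here, only *MT1L* is a pseudogene in GENCODE.

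One of the PR sites lay directly upstream of *MT2A*, at chr16:56642179-56642466 (hg19), 288 bases that ended 12 bases before the first base of the transcript. It is shown whole because it is the strongest of the 4 sites and adjoins the one member above an FPKM of 1. Capitals mark the receptor core ACANNNTGT and the metal response cores TGCACNC and TGCGCNC, each searched on both strands.

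MT2A upstream site: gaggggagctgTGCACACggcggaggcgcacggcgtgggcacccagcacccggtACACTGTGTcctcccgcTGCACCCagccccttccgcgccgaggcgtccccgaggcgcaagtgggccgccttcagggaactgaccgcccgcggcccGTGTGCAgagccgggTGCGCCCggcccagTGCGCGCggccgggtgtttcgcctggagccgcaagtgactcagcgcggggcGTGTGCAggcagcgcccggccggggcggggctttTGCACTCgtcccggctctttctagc

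The receptor core in capitals, at chr16:56642233-56642241, ended 237 bases before the transcript. The same site held 5 matches to TGCACNC, 2 to TGCGCNC and 1 to TGANTCA, the letters of an AP-1 site, which is left in lower case. The full palindromic receptor element of 15 letters, which joins both half-sites over a gap of 3, and the half-site TGTTCT did not occur in it. Among 11178 PR sites, taken as windows of 300 bases around their midpoints, 8.2% held ACANNNTGT, 22.5% TGCACNC, 9.44% TGCGCNC, 7.22% TGANTCA, 17.7% TGTTCT and 0.0268% the 15-letter element. A match is a match of letters only.

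The other 3 sites lay further along the cluster. The second, at chr16:56659371-56659791, covered the 5′ end of *MT1E*, and only a stretch of 30 bases is shown since the site runs over annotated exons. The third lay between *MT1E* and *MT1M* and overlapped no gene of GENCODE. The fourth lay downstream of *MT1X*, inside an unnamed long noncoding RNA gene but in none of its exons. Sequence is shown for the second and the third, with capitals as above.

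MT1E site, chr16:56659539-56659568: tcagggggtggTGCGCCCggcccttctgcg
Site between MT1E and MT1M, chr16:56663397-56663696: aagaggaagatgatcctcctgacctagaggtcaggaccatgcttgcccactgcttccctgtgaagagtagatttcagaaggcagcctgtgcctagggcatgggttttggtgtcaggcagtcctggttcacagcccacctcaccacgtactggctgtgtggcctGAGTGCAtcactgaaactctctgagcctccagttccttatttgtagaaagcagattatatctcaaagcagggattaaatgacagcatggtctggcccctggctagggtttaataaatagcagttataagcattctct

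Neither the *MT1E* site nor the site between *MT1E* and *MT1M*, each taken as a window of 300 bases, held ACANNNTGT, TGTTCT or the 15-letter element. The *MT1E* site held 1 match to TGCACNC and 2 to TGCGCNC, and the site between *MT1E* and *MT1M* held 1 to TGCACNC. These results say only which letters stand in the windows.

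The score of a site is the one MACS gives, log10 of the p-value times a negative factor of 10, so that a higher score is a smaller p-value. The *MT2A* site scored 141.75, which placed it 523rd among the 11181 sites, above 95.1% of them. The *MT1E* site scored 84.52, above 69.4% of the sites. The site downstream of *MT1X* scored 72.86 and the site between *MT1E* and *MT1M* 59.16, above 46.1% and 15.3% of the sites, respectively. With a median score of 74.5 over all sites, 2 of the 4 were thus above the median and 2 below it.

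**Figure D1:**
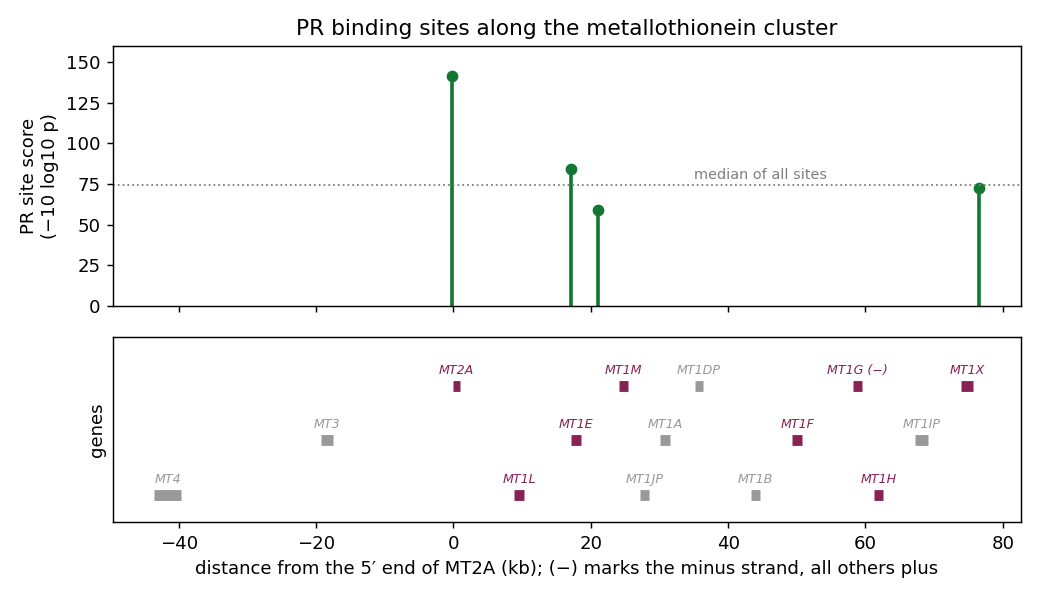
PR binding sites along the metallothionein cluster, with the score of each site (MACS score, upper panel) and the genes (lower panel) by distance in kb from the 5′ end of *MT2A*. The highest site, with a score of 141.75, stands at the start of *MT2A*, and no site lies between the one with a score of 59.16 and the one with a score of 72.86 at the far end of the cluster.

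From the first base of *MT2A* to the last of *MT1X* the cluster spans 75.6 kb (chr16:56642478-56718108). With 50 kb added on each side, the 4 sites correspond to 22.8 sites per Mb, against 3.61 per Mb over the chromosomes. All 8 genes lie within 50 kb of a site, but they share these 4 sites, and 45.6% of all gene symbols have a site within that distance. Closer to the genes, 2 of the 8, *MT2A* and *MT1E*, had a site within 1 kb of their 5′ end, as did 7.54% of the 19436 gene symbols whose strand could be matched. For *MT1X* the nearest site was 2484 bases from the 5′ end and for *MT1M* 2819 bases. *MT1L* (7998 bases), *MT1H* (15140), *MT1G* (16889) and *MT1F* (27011) were further from the nearest one.

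In the RNA-seq data *MT2A* was the only one of the 8 genes above an FPKM of 1. FPKM scales the fragments of a transcript by its length and by the size of the library, so that levels can be compared between genes. It does not correct for reads discarded for mapping to several locations. The room for such reads differs between the members, as given below, so their levels are comparable only roughly. *MT2A* stood at 28.3 in EtOH and 25.1 in R5020, rank 900 and rank 1112 among all gene symbols. It held 96.4% of the summed FPKM of the 8 genes in EtOH and 96.6% in R5020. A gene was retained where either library reached an FPKM of 1, the filter of the study's methods, which 1 of the 8 genes and 47.3% of all gene symbols passed.

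*MT1F* and *MT1X*, which encode metal-binding isoforms of the same size as *MT2A*, were the only others with a value above 0, both below an FPKM of 1. *MT1F* stood at 0.734 in EtOH and 0.287 in R5020. *MT1X* stood at 0.333 in EtOH and 0.611 in R5020. The order of the levels was thus *MT2A*, *MT1F*, *MT1X* in EtOH and *MT2A*, *MT1X*, *MT1F* in R5020. No spread is known by which to tell the latter pair apart.

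The remaining 5 genes, *MT1E*, *MT1G*, *MT1H*, *MT1M* and *MT1L*, were listed at 0 in both libraries, with a status of OK. Of all gene symbols 26.4% were listed at 0 in both, and of the 612 symbols with a longest transcript of 300 to 600 nt, the class the 8 genes fall into, 57.4%. A 0 in these files need not be an absent transcript. The keratin genes *KRT8* and *KRT18*, which mark luminal breast cells, were listed at 0 in EtOH with a failed estimate for all 6 transcripts, whereas R5020 gave 285 and 174. In addition, 2 of 80 ribosomal protein symbols, taken by the pattern of their names, were at 0 in both libraries. Whether T47D cells express these 2 was not checked, so they do not show that such a 0 is a missed transcript.

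The other family members in the files were no higher. *MT1A*, *MT1B*, *MT1DP*, *MT1JP*, *MT3* and *MT4* were listed at 0 in both libraries. The pseudogene *MT1IP* was at 0.0536 in EtOH and 0.0560 in R5020. Over the whole family, 11 of 15 symbols were thus listed at 0 in both conditions.

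By the deposited annotation all members lie on chromosome 16 of hg19. *MT2A* spans chr16:56642478-56643409, *MT1F* chr16:56691855-56693215 and *MT1X* chr16:56716382-56718108, all on the plus strand, and *MT1G* is the only one of the 8 on the minus strand.

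**Figure D2:**
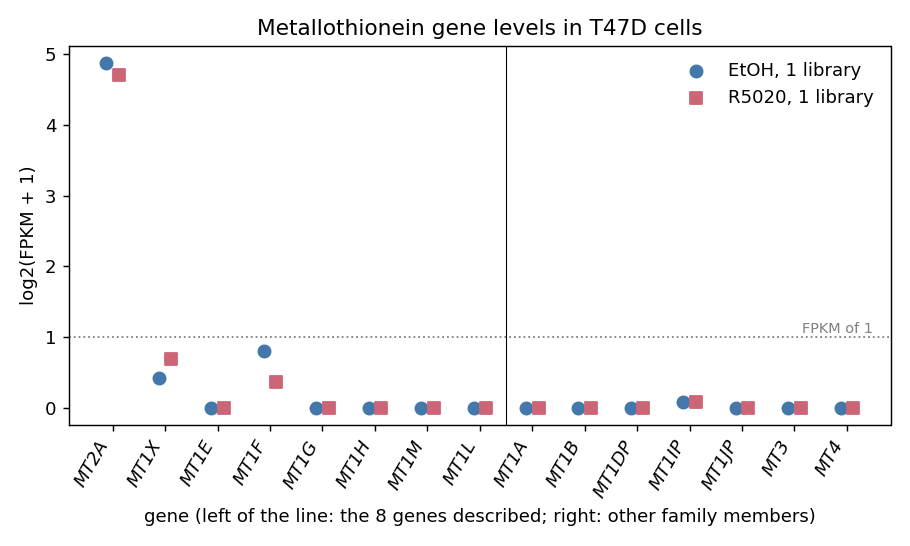
Level of each metallothionein gene, log2(FPKM + 1), in the EtOH library (circles) and the R5020 library (squares), 1 library each. *MT2A*, with an FPKM of 28.3 and 25.1, stands alone above the dotted line at an FPKM of 1, and 11 of the 15 genes sit at 0 in both.

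Changes were taken as the log2 ratio, R5020 to EtOH, after 1 was added to each FPKM, so that those of weakly expressed genes are understated. In bulk RNA a lower value from fewer cells of a kind and one from less RNA per cell cannot be told apart. For *MT2A* it was −0.16, a ratio of the FPKM values of 0.888. The summed FPKM of the 8 genes was 29.4 in EtOH and 26.0 in R5020, a log2 change of −0.17. The sum is less open than single genes to reads being assigned to a neighbour in the family. It does not recover reads that were discarded for mapping to several locations. *MT2A* held 96.4% of the sum in EtOH and 96.6% in R5020, so that the summed change is nearly that of *MT2A*. The only retained gene of the 8 did not reach the 1.5-fold threshold in either direction, a count of 0 of 1. Among all 11018 retained genes 7.67% passed 1.5-fold upward and 4.14% downward.

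Known hormone response genes gave the scale of a response. *FKBP5*, a cochaperone of steroid receptors, stood at 15.9 FPKM in EtOH and 86.6 FPKM in R5020 (log2 change 2.38). *TSC22D3*, a leucine zipper gene induced by glucocorticoids, had 3.52 and 18.7 (2.12). The circadian gene *PER1*, at 0.856 and 1.57 (0.47), was lower in level. The pseudocount kept it under the threshold, as the ratio of its FPKM values was 1.83. A PR site lay 227 bases from a 5′ end of *FKBP5* and 351 bases from one of *PER1*, whereas *TSC22D3* had none within 50 kb.

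*MT2A* was therefore set beside the other genes with a PR site at their start. Of the 997 retained genes with a site within 1 kb of a 5′ end, 12.2% passed 1.5-fold upward and 4.61% downward, with a median log2 change of 0.02. In this group 276 genes, or 27.7%, had a lower log2 change than *MT2A*. Where the site scored at least as high as that of *MT2A*, 87 genes remained, of which 24.1% passed 1.5-fold upward and 2.3% downward. Their median log2 change was 0.20 and their 25th percentile −0.01, so that *MT2A* at −0.16 lay below that percentile. Both groups hold genes of all lengths, whereas the *MT2A* transcript is 419 nt long. The retained genes with a longest transcript of 300 to 600 nt had a median log2 change of −0.29. These shares describe 1 pair of libraries, and no test was made of them.

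The level of *MT2A* rests on more reads than those of the other members. Coverage times transcript length over a read length of 50 nt corresponded to about 1096 reads in EtOH and 942 in R5020 for *MT2A*. For *MT1F* it was about 32 and 12 reads, and for *MT1X* about 11 and 16. The FPKM ratio of R5020 to EtOH was 0.391 for *MT1F* and 1.83 for *MT1X*, but with the pseudocount of 1 their log2 changes were −0.43 and 0.27. These are small read numbers from 1 library each, and whether the conditions differ was not tested.

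The intervals that Cufflinks gave for the FPKM of the libraries overlapped for each of the 3 genes. For *MT1F* they ran from 0.185 to 0.969 in EtOH and from 0.0478 to 0.478 in R5020. For *MT1X* they ran from 0.0504 to 0.605 in EtOH and from 0.157 to 0.992 in R5020. For *MT2A* they ran from 13.2 to 17.5 in EtOH and from 11.3 to 15.7 in R5020, and neither contained the FPKM listed beside it. This was so for 96 of the 159 transcripts of 300 to 600 nt with an FPKM above 1 in EtOH, and what these intervals cover is thus uncertain.

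Transcript length moved with the change. The *MT2A* transcript is 419 nt long and those of the 8 genes 396 to 506 nt. Among the 143 retained genes with a longest transcript of 300 to 600 nt the median log2 change was −0.29, and 2.8% passed 1.5-fold upward and 19.6% downward. In the genes of 601 to 1000 nt the median was −0.12, and above 4000 nt it was 0.06. In the shortest class, up to 300 nt, the median was 0.11, with a spread from −1.88 to 2.28 between the 25th and 75th percentiles. Within the class of 300 to 600 nt, 66.4% of the genes had a lower log2 change than *MT2A*, against 25.8% of all retained genes. Relative to the median of the planned length class, 1 of 10 of equal number, which reached up to 1180 nt, *MT2A* stood at −0.05. Relative to the median of the genes of 300 to 600 nt it stood at 0.13, an adjustment chosen after seeing the data, so that its direction depended on the class. The part of length in the result was not tested.

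**Figure D3:**
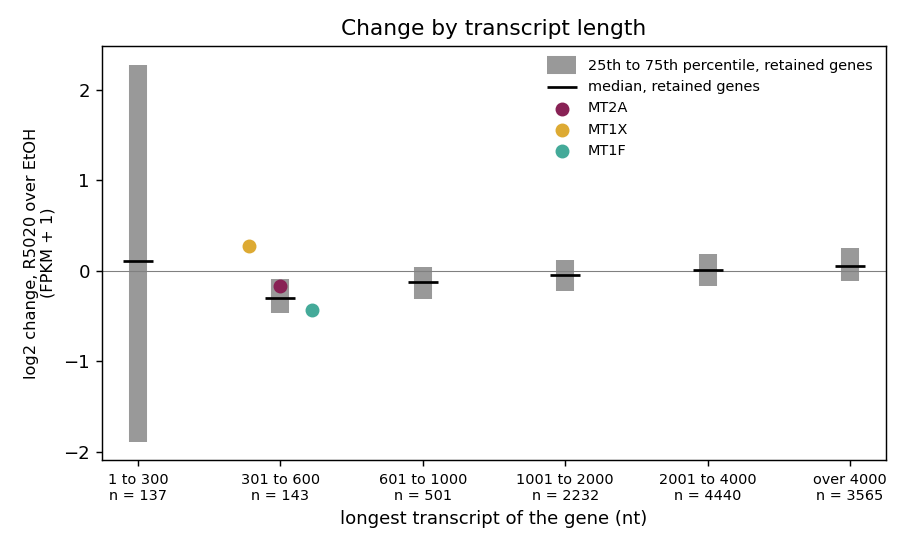
Log2 change of FPKM + 1, R5020 over EtOH, by the length of the longest transcript, as the median (black line) and the 25th to 75th percentile (grey bar) of the retained genes in each class, with the 3 metallothionein genes above 0 as points, set side by side in their class. The median falls to −0.29 in the class of 301 to 600 nt, where *MT2A* lies at −0.16, inside the grey bar.

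The genes whose pair of levels was most like that of *MT2A* were *CCDC72*, at 27.6 in EtOH and 24.8 in R5020, the small nucleolar RNA *SNORD16*, at 27.2 and 25.2, and the mitochondrial ribosomal protein gene *MRPL20*, at 28.2 and 26.6. They were the nearest on the log2(FPKM + 1) scale over the 2 libraries among genes with transcripts of up to 1000 nt, at distances of 0.04, 0.05 and 0.08. With 2 libraries this says only that their values were close.

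The members resemble each other closely, so the assignment of reads could bear on their FPKM values, which was not tested. The first 60 coding bases are shown for the 7 genes with a coding sequence, with capitals where a base differs from *MT2A*.

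MT2A: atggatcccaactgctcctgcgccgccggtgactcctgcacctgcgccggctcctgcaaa
MT1X: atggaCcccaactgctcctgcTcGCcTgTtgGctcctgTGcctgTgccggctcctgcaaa
MT1E: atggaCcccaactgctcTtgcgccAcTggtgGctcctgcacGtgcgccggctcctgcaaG
MT1F: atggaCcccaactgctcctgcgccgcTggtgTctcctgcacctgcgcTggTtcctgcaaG
MT1G: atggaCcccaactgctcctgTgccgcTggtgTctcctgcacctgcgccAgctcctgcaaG
MT1H: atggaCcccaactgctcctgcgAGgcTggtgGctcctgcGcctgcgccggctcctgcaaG
MT1M: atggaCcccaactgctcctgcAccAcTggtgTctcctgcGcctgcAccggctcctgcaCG

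Over these 60 bases *MT1F* and *MT1G* differed from *MT2A* at 6 positions, *MT1E* and *MT1H* at 7, *MT1M* at 9 and *MT1X* at 10. Positions are counted from the first base of the start codon. Over the whole coding sequence of 183 bases, the identity between any pair ran from 88.5% for *MT1X* with *MT1F* to 95.1% for *MT2A* with *MT1G*.

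The authors discarded reads that mapped to several locations and allowed up to 2 mismatches. The spliced transcripts were therefore cut into all windows of 50 bases, the length of a read. Of the windows of *MT2A*, 88.9% had no exact copy elsewhere in the genome. The share was 79.7% for *MT1X*, 92.3% for *MT1E*, 93.9% for *MT1F*, 81% for *MT1G*, 79.6% for *MT1H*, 81.4% for *MT1M* and 88.3% for *MT1L*, for which the annotated model holds only 137 windows.

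With 2 mismatches allowed, the windows without a copy elsewhere fell to 44.6% for *MT2A* and 55.5% for *MT1X*, and were 80.3% for *MT1F*. For the members listed at 0 they were 51.6% for *MT1E*, 61.1% for *MT1G*, 45.4% for *MT1H*, 45.8% for *MT1M* and 29.2% for *MT1L*. *MT3* and *MT4* were at 100% by both measures. The mate of a paired read adds placement that this count leaves out, and the part of discarded reads in the listed values was not tested.

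**Figure D4:**
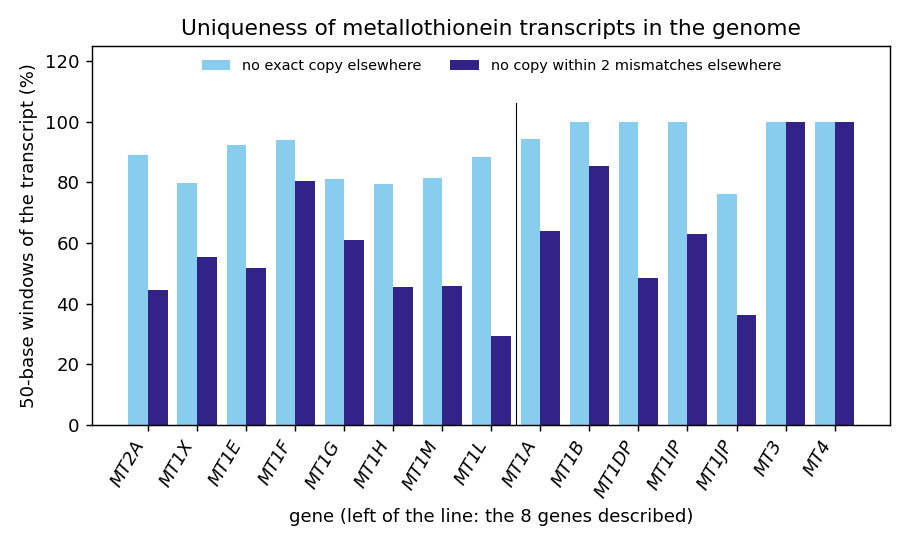
Share of the 50-base windows of each metallothionein transcript with no exact copy elsewhere in the genome (light bars) and with none within 2 mismatches (dark bars). *MT2A* has 88.9% and 44.6%, and *MT1E* has 92.3% and 51.6%.

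The promoters of the members differed in their metal response cores. In the 250 bases before the transcript, TGCACNC and TGCGCNC together matched 8 times in *MT1H*, 6 times in *MT2A* and *MT1F*, 5 times in *MT1G*, 4 times in *MT1X* and *MT1L*, 3 times in *MT1M* and 1 time in *MT1E*. Of the 20163 promoters of protein-coding genes, 0.0794% had 6 or more such matches, and 27.6% had 1 or more.

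The genes that move zinc and copper across membranes and within cells, with the metal sensor, formed a list of 32, of which 24 were retained. Upward, 4 of them passed 1.5-fold (16.7%, against 7.67% of all retained genes), and downward 2 (8.33%, against 4.14%). The other 18 lay between. The median log2 change of the 24 was 0.13, against 0.01 over all retained genes. The list is small, the shares rest on 4 and 2 genes, and nothing particular to it is read from them.

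The sensor *MTF1*, which activates metallothionein transcription when zinc is high, stood at 2.94 FPKM in EtOH and 4.64 FPKM in R5020 (log2 change 0.52). The pseudocount of 1 kept it under the threshold, as the ratio of its FPKM values was 1.58. *SLC30A1*, the plasma membrane zinc exporter and itself a target of MTF1, had 4.08 and 6.82 (0.62), just past the threshold. *SLC39A14*, a zinc and iron importer, had 3.21 and 8.22 (1.13).

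Of the copper genes, *SLC31A2*, a copper transporter of endosomes and lysosomes, stood at 4.94 FPKM in EtOH and 12.2 FPKM in R5020 (log2 change 1.15). *ATP7B*, the copper-exporting ATPase mutated in Wilson disease, had 1.43 and 2.99 (0.72). *ATOX1*, the copper chaperone that delivers to it, had 12.6 and 7.23 (−0.73). Its transcript of 489 nt falls into the class of short transcripts described above. The zinc importer *SLC39A4* had 3.17 and 1.77 (−0.59), just past the threshold.

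PR sites lay near some of these genes. A site covered a 5′ end of *ATP7B*, and one lay 257 bases from the 5′ end of *ATOX1*. Of the 32 genes, these 2 had a site within 1 kb of a 5′ end, beside 7.54% of gene symbols with a strand. The nearest site was 11117 bases from *SLC31A2*, 86430 bases from *SLC30A1*, 138626 bases from *SLC39A14* and 177879 bases from *MTF1*. A site lay inside *SLC39A4*. Of the 32 genes, 13 had a site within 50 kb, beside 45.6% of all gene symbols.

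**Figure D5:**
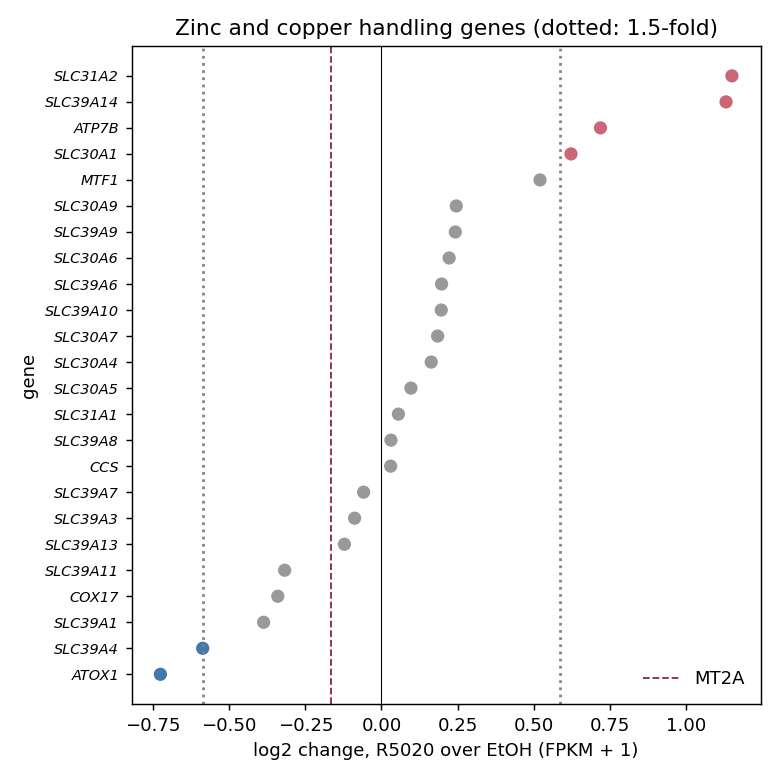
Log2 change of FPKM + 1, R5020 over EtOH, of the 24 retained zinc and copper handling genes, with dotted lines at 1.5-fold and a dashed line at the value of *MT2A*. The 4 genes past the right dotted line reach up to 1.15 for *SLC31A2*, and *ATOX1* and *SLC39A4* lie past the left one.

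Steroid receptors of the same family were read from the same libraries. *PGR*, the gene of the PR, stood at 23.7 FPKM in EtOH and 15.3 FPKM in R5020 (log2 change −0.60, past the threshold), summed over 2 transcripts. The first listed of these had a Cufflinks status of low data in both libraries. The status of the other was not read. *NR3C1*, the glucocorticoid receptor, had 2.41 and 1.94 (−0.21). *NR3C2*, the mineralocorticoid receptor, had 0.594 and 1.15 (0.43), a ratio of 1.94 that the pseudocount likewise kept under the threshold. The level of *PGR* was thus the highest of these 3 in both libraries.

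The label of the cells was checked against markers. Of the 8 luminal epithelial markers all were at 10.9 FPKM or more in R5020, and in EtOH all but *KRT8* and *KRT18*, with their failed estimates, at 17.2 or more. Basal markers, blood and endothelial markers were at 0.315 or less in both libraries. Of 3 fibroblast collagens *COL1A1* was at 5.12 and 3.31 and the others at 0.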

How the data were processed

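Values are those of 1 RNA-seq library of EtOH-treated, 1 of R5020-treated T47D cells and 1 PR ChIP-seq library. The input DNA library entered only as the authors' control. For RNA-seq, the authors aligned 50-bp paired-end reads to hg19 with TopHat, discarded reads at several locations and estimated abundance with Cufflinks. They deposited, per RefSeq transcript, the FPKM, a coverage signal, a length and an interval. For ChIP-seq they used Bowtie 1.1.2 and MACS against input and deposited a score per site, 50 or more throughout. The bounds of the deposited FPKM intervals were used as given, the lower one being held as a score since 1 transcript carries a placeholder. Positions, deposited from 0, are given from 1.

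FPKM was summed by gene symbol, with a pseudocount of 1, a minimum FPKM of 1 in at least 1 library and a threshold of 1.5-fold. FPKM values are not counts, so no count test was used, and without replicates no p-value was computed. Coverage expressed as reads came to 35151493 in EtOH and 36203604 in R5020, an estimate that gives no counting interval. The paper reports higher totals of unique reads for both libraries, with EtOH the larger, so the read numbers given here are rough. Sequences and annotation were those of GRCh37, the assembly of hg19, with GENCODE release 44. For each gene the GENCODE transcript closest in length within the RefSeq extent was used, and copies of its windows of 50 bases were sought with BLAST 2.17.0 followed by a full comparison. For *MT1L*, *MT1DP* and *MT1IP* this model is much shorter than the RefSeq transcript.

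The genes, lists and alternatives were chosen with earlier results of these data known. All 8 members are named, with the other family symbols, and of each list the genes past 1.5-fold, *MTF1* and *SLC30A1*. The steroid receptors and hormone response genes given are also named, those under 1.5-fold after their values were seen. Of the items read, 1 gene and the sequence of 1 site are not reported here. The calling procedure was tested on simulated data. The planted changes were in well expressed genes with little noise, so this was a check of the arithmetic only. It does not bear on weakly expressed genes, transcript length or the variation between libraries. Python 3.11.15, pandas 2.3.3, numpy 2.4.6, pysam 0.24.0 and matplotlib 3.10.9 were used.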

Additional observations from a re-analysis of the deposited data

How the results depend on the processing

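The log2 change of *MT2A* stayed below 0 and under 1.5-fold with a pseudocount of 0.1, with none, after centring the log2 ratios, with coverage in place of FPKM, with the highest transcript and with the median of 1 of 10 length classes subtracted, between −0.25 and −0.05. With the median of the retained genes of 300 to 600 nt subtracted, an alternative chosen after seeing the data, it turned to 0.13, and the summed FPKM of the 8 genes also to 0.13, by construction, as that median is −0.29. For *MT1X* the log2 change of 0.27 became 0.72 with a pseudocount of 0.1 and 0.88 with none, and for *MT1F* that of −0.43 became −1.11 and −1.36. Both stay under an FPKM of 1, where the pseudocount of 1 shrinks a change. The count of retained members past 1.5-fold stayed at 0 at a lower threshold, with a pseudocount of 0.1 and after centring. In these settings *MT2A* was the only member counted. At 2-fold and with an FPKM of at least 1 in both libraries it was also 0, but there it could not rise. Without a filter it was 0 at the pseudocount of 1, and the filter was not left out together with a pseudocount of 0.1. At a pseudocount of 0.1 the changes of *MT1F* (−1.11) and *MT1X* (0.72) both exceed 1.5-fold. The 0 without a filter thus rests on the pseudocount of 1. The 4 PR sites stayed 4 at 10, 25 and 100 kb, but were 2 at or above the median score and 1 at a score of at least 100, that of *MT2A*. No paired analysis was possible because there was 1 library per condition, and for the same reason no replicate could be left out.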

Other observations

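Genes of the oxidative stress response, which share inducers with the metallothioneins, were also read from the files. Of a list of 16, 15 were retained, 2 passed 1.5-fold upward (13.3%, against 7.67% of all retained genes), 1 downward (6.67%, against 4.14%) and 12 lay between, with a median log2 change of −0.11. *SOD2*, the mitochondrial superoxide dismutase, stood at 8.45 FPKM in EtOH and 23.7 FPKM in R5020 (log2 change 1.39), and *GCLC*, the catalytic subunit for the first step of glutathione synthesis, had 6.18 and 10.7 (0.70). *TXNRD1*, the cytosolic thioredoxin reductase, had 34.3 and 18.4 (−0.86), and a PR site covered one of its 5′ ends. A site also lay 366 bases from a 5′ end of *SQSTM1*, named after its values were seen, which had 30.9 and 29.4 (−0.07). Of the 16 genes, these 2 had a site within 1 kb of a 5′ end, as did 7.54% of gene symbols with a strand. *HMOX1*, a further metal-responsive gene, named after its values were seen, had 1.47 and 1.68 (0.11).

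The genes within 250 kb on either side of the cluster, other than metallothioneins, numbered 8, of which 6 were retained. None of the 6 reached 1.5-fold in either direction, which 7.67% of all retained genes did upward and 4.14% downward. The largest differences were those of *BBS2*, at 5.14 FPKM in EtOH and 4.32 FPKM in R5020 (−0.21), and *NUDT21*, at 15.3 and 17.8 (0.21), both named after their values were seen. Of the 8 neighbours, 2 had a PR site within 50 kb, as did 45.6% of all gene symbols, and none had one within 1 kb of a 5′ end, as did 7.54% of those with a strand.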
